A study of Mus musculus with 24 samples.

Results

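The Schlafen family was followed in mice treated with β-nicotinamide mononucleotide (β-NMN, a precursor of NAD+) or with saline vehicle during peritonitis. Its members here were the 7 genes Slfn1, Slfn2, Slfn3, Slfn4, Slfn5, Slfn8 and Slfn9, taken by symbol from the count tables, and all 7 were found among 54658 symbols. All animals were C57BL/6 males of 7 to 12 weeks. In the first experiment, 1 ml of 4% thioglycollate medium (TGC) was injected intraperitoneally and mice received β-NMN (185 mg/kg/day, n = 6) or vehicle (n = 6). Cells from the peritoneal lavage were then plated and stimulated ex vivo for 6 h with E. coli at 15 bacteria per cell, so that both groups had been exposed to TGC and to bacteria. In the second experiment, sepsis was induced by cecal ligation and puncture (CLP). Hearts and lungs were taken 24 h after surgery from 3 vehicle and 3 β-NMN mice, with both organs from the same animals, and both groups had undergone CLP. By the study's account, these mice had received a single injection of β-NMN (185 mg/kg) or vehicle right after surgery. The TGC mice had been injected once daily for 3 days. Neither experiment had libraries from unstimulated cells or sham mice analysed here, so each comparison is β-NMN against vehicle in inflamed tissue. The lavage cells were not sorted, and the organs were bulk tissue.

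Schlafen genes are a rodent and human family of immune and growth regulators, many of which are induced by type I interferon through STAT and IRF factors. They are grouped by the length of their proteins. Slfn1 and Slfn2 are short members, Slfn3 and Slfn4 are intermediate, and Slfn5, Slfn8 and Slfn9 are long members that carry an additional helicase-like region. Slfn2 is known for keeping T cells and monocytes quiescent, Slfn4 for its expression in activated myeloid cells, and Slfn5, Slfn8 and Slfn9 belong to the branch that contains the antiviral human Schlafen proteins.

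The 7 members formed 1 cluster on chromosome 11, at chr11:82951349-83215154 (263.8 kb, GRCm38, GENCODE M21), with 5 genes on the plus and 2 on the minus strand. From left to right the cluster held Slfn5 (chr11:82951349-82964840, plus), Slfn9 (chr11:82978390-82991830, minus), Slfn8 (chr11:83002158-83020810, minus), Slfn2 (chr11:83065112-83070678, plus), Slfn1 (chr11:83116849-83122670, plus), Slfn4 (chr11:83175186-83190216, plus) and Slfn3 (chr11:83191330-83215154, plus). Slfn5 shared 559 exonic bases with its antisense partner Slfn5os, and the sources used here do not give the strand setting of the counting, so reads of the 2 genes could not be told apart. The members are paralogs, so the share of each gene's transcript sequence that occurs in another gene was counted. In stretches of 150 bases, the stated read length, none of the sequence of Slfn1, Slfn2, Slfn4 or Slfn8 recurred in another gene, against 1.29% for Slfn3, 1.46% for Slfn9 (shared with the pseudogene Slfn10-ps) and 5.46% for Slfn5 (shared with Slfn5os). In stretches of 75 bases the shares rose to between 0 and 8.22%, including 45 windows common to Slfn3 and Slfn4 and 156 common to Slfn8 and Slfn9.

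The sequences upstream of the start sites are shown for the 3 members whose level changed in peritoneal cells and for Slfn8 and Slfn9, the pair of members with the most similar upstream sequence. Each line is the 180 bases before the RefSeq start site, read 5′ to 3′ on the gene's strand (GRCm38.p6). Capitals mark matches, on either strand, to the letters searched for IRF (GAAANNGAA), STAT (TTCNNNGAA), AP-1 (TGANTCA), PU.1 (GAGGAA) and NF-kB (GGGNNTTCC).
Slfn1 (chr11:83116640-83116819): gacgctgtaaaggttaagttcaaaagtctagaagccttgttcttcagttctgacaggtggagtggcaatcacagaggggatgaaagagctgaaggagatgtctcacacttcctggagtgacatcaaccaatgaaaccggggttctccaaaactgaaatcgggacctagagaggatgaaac
Slfn3 (chr11:83191150-83191329): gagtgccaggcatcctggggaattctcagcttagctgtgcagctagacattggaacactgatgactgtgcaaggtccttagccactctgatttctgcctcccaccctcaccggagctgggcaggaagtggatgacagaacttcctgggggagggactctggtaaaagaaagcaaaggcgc
Slfn4 (chr11:83175006-83175185): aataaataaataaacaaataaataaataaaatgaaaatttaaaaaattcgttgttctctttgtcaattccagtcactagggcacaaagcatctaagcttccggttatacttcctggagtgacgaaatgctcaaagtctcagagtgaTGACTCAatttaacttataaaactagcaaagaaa
Slfn8 (chr11:83020811-83020990): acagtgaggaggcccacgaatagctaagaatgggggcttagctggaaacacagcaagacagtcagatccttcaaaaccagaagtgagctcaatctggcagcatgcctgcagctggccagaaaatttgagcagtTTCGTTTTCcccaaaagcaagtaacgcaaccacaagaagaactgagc
Slfn9 (chr11:82991831-82992010): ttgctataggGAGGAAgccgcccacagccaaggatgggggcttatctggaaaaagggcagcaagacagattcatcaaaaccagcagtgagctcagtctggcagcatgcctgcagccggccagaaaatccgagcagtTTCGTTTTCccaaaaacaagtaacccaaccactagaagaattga
Slfn8 and Slfn9 were identical at 79.8% of the columns of their alignment, gaps included, and both held the reverse complement of the IRF letters near the start site, from -47 to -39 in Slfn8 and from -44 to -36 in Slfn9. By this measure all other pairs of members were identical at 39.6 to 51% of columns. The Slfn9 stretch also held the PU.1 letters, from -170 to -165, and farther upstream, outside the bases shown, Slfn9 held the NF-kB letters from -213 to -205. Slfn8 has a second RefSeq start site, whose window held the same IRF match. Slfn4 held the AP-1 letters, a palindrome, from -34 to -28. Slfn1 and Slfn3 held none of these letters in the searched window of 250 bases before to 50 bases after the start. Among the members not shown, Slfn5 held the IRF letters at -155 to -147 and at -132 to -124 and the NF-kB letters at -93 to -85, counted from a RefSeq start site that lies inside the GENCODE gene, where 117 of the 180 bases before it are annotated as Slfn5 exon, and Slfn2 held the NF-kB letters at -32 to -24. No member promoter held the STAT letters. Among all 32851 promoters of the same length, 8.56% held the IRF, 8.3% the STAT, 7.81% the AP-1, 28.3% the PU.1 and 5.82% the NF-kB letters. A match describes the letters only and is not evidence of binding.

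Libraries held between 8915366 and 112456050 counts. Total counts ranged from 31126823 to 112456050 in peritoneal cells, from 27319513 to 68523239 in hearts and from 8915366 to 28356786 in lungs. In each organ, vehicle replicate 2 lay farthest from the other libraries (spread of log2 differences of 0.99 against 0.386 to 0.577 in hearts, and of 1.57 against 0.45 to 0.602 in lungs), and the lung of that mouse had the lowest total. Macrophage markers were abundant in the peritoneal cells (summed 5620 to 12140 CPM over 7 genes), cardiomyocyte markers in hearts (30480 to 56900 CPM over 6 genes) and epithelial markers in lungs (58240 to 103400 CPM over 6 genes). Counts were divided by TMM-adjusted library sizes and put on the usual CPM scale, separately in each tissue, and levels of different genes were compared per kilobase of exon (RPKM). In bulk RNA, fewer cells of a type and less RNA per cell cannot be told apart.

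Every member had a higher mean RPKM in stimulated peritoneal cells than in the organs, and the order of the members differed between tissues. In vehicle peritoneal cells, the mean level was highest for Slfn4 (783 ± 326 RPKM, SD, n = 6) and Slfn2 (689 ± 81.1 RPKM), whose ranges overlapped. Slfn5 (259 ± 44.9 RPKM), Slfn8 (162 ± 27.5 RPKM) and Slfn1 (120 ± 26.5 RPKM) followed, and the ranges of Slfn8 and Slfn1 overlapped although Slfn8 was above Slfn1 in 6 of 6 libraries. Slfn9 (29.2 ± 5.99 RPKM) and Slfn3 (7.97 ± 1.19 RPKM) were lowest and lay apart from each other. In β-NMN peritoneal cells the 2 leading genes changed places. Slfn2 (605 ± 86.2 RPKM) was above Slfn4 (391 ± 102 RPKM) in 6 of 6 libraries with no overlap of their ranges, and Slfn1 (165 ± 23.6 RPKM) came level with Slfn8 (173 ± 28.3 RPKM).

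In vehicle hearts the order was different. Slfn5 led (31.9 ± 5.07 RPKM, n = 3), Slfn2 followed (16.4 ± 2.45 RPKM), and the other 5 members had means between 0.753 RPKM (Slfn9) and 2.97 RPKM (Slfn8), with overlapping ranges between neighbours in the order. Slfn4, the leading member in vehicle peritoneal cells, stood at 1.18 ± 0.537 RPKM in vehicle hearts. In vehicle lungs Slfn2 led (71.2 ± 9.96 RPKM), Slfn5 followed (32.8 ± 4 RPKM), and Slfn4 spread the most (16 ± 17.9 RPKM). Slfn5 thus made up 56.5 ± 3.66% of the family's summed RPKM in vehicle hearts, 24.4 ± 1.81% in vehicle lungs and 12.8 ± 1.56% in vehicle peritoneal cells. The tissues come from 2 tables scaled separately, and levels between tissues were not tested. Of the other Schlafen genes in the tables, Slfn14 and Slfnl1 were below the count filter in all 3 tissues, and the pseudogene Slfn10-ps reached 64.4 ± 7.76 CPM in vehicle peritoneal cells.

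**Figure D1:**
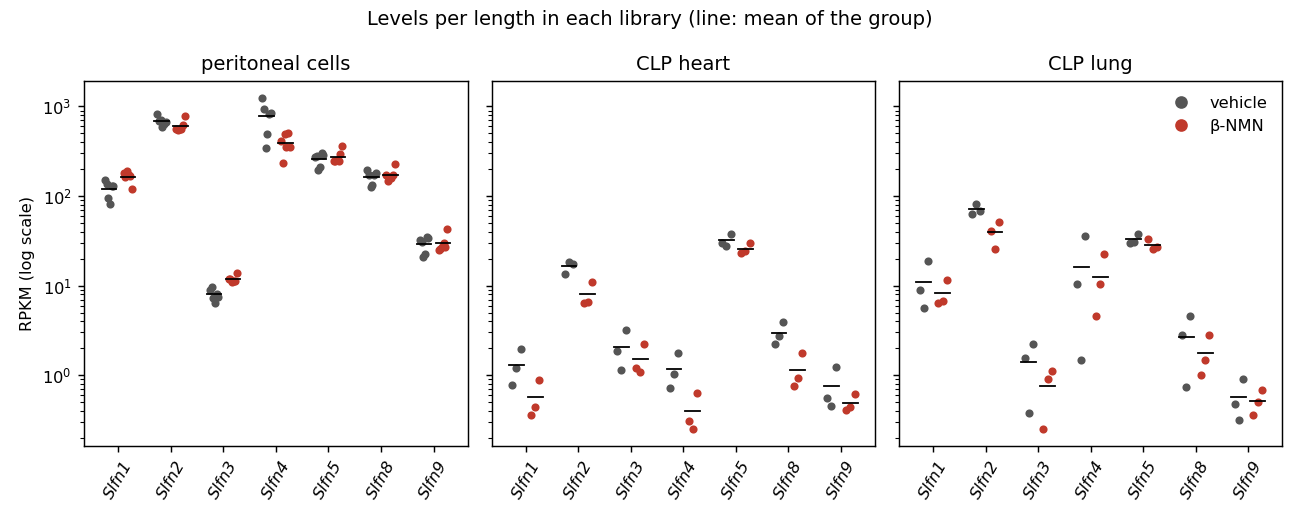
Level of each Schlafen gene per kilobase of exon (RPKM, log scale) in every library, with 1 panel per tissue, grey points for vehicle, red points for β-NMN and a line at the group mean. In peritoneal cells Slfn4 and Slfn2 are highest and Slfn3 lowest, whereas in hearts Slfn5 and Slfn2 stand above the other members.

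In E. coli-stimulated peritoneal cells, members of the family moved in opposite directions with β-NMN. Slfn1 and Slfn3 were higher, Slfn4 was 0.499 times its vehicle level, and Slfn2 and the 3 long members did not pass the test. By edgeR's quasi-likelihood test with Benjamini-Hochberg adjustment over 14985 genes, 3 of 7 members were called at an adjusted p below 0.05, 2 higher and 1 lower. Of all genes tested, 51.6% were called, 23.7% higher and 27.9% lower, so the members' share was near the background.

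Slfn3, an intermediate member and the lowest of the family, had the clearest separation. It lay at 21.9 (lowest), 26.6 (median) and 32.9 CPM (highest) in vehicle cells, and at 37.6, 39.6 and 46.7 CPM in β-NMN cells. Every β-NMN library was above every vehicle library. The difference was 1.49-fold (log2 0.57 ± 0.10 SE, adjusted p = 0.00029 by edgeR, exact permutation p = 0.00217, the smallest that 6 against 6 allows). Non-overlapping groups of this direction were seen in 12.6% of all genes tested, and those of the opposite direction in 14%.

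Slfn1, a short member, lay at 152.1, 240.6 and 280.8 CPM (lowest, median, highest) in vehicle cells and at 225.7, 314.2 and 352.6 CPM in β-NMN cells. Only β-NMN replicate 6, at 225.7 CPM, fell within the vehicle range. The difference was 1.37-fold (log2 0.46 ± 0.15 SE, adjusted p = 0.0173 by edgeR, exact permutation p = 0.0152).

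Slfn4, the other intermediate member and the immediate neighbour of Slfn3 in the cluster, went the other way. Its level in vehicle replicates 1 to 6 was 4970, 3721, 1352, 1957, 3277 and 3349 CPM, and in β-NMN replicates 1 to 6 it was 1612, 917.4, 1929, 1392, 2025 and 1412 CPM. Vehicle replicates 3 and 4 lay within the β-NMN range and the other 4 vehicle libraries lay above it. The mean fell from 3104 ± 1291 to 1548 ± 404 CPM (log2 fold change -1.004 ± 0.268 SE, 95% interval -1.57 to -0.43, adjusted p = 0.00574 by edgeR, exact permutation p = 0.0303). These 3 calls were kept in each of the 12 fits that left out 1 library, where the log2 fold change ranged from 0.55 to 0.64 for Slfn3, from 0.40 to 0.56 for Slfn1 and from -1.12 to -0.79 for Slfn4.

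Slfn2, the abundant short member, had a mean of 1147 ± 135 CPM in vehicle and 1007 ± 143 CPM in β-NMN cells (log2 fold change -0.19, 95% interval -0.42 to 0.04, adjusted p = 0.163 by edgeR). In 5 of the 6 β-NMN libraries it was between 918.6 and 1029 CPM, and in β-NMN replicate 6 it was 1288 CPM. Without that library the log2 fold change of Slfn2 was -0.24 with an adjusted p of 0.0485 by edgeR, and 4 members were called in place of 3.

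The long members differed little between the group means. Slfn5 was at 1636 ± 284 and 1740 ± 306 CPM (log2 fold change 0.09, 95% interval -0.20 to 0.38), Slfn8 at 664 ± 112 and 706 ± 116 CPM (0.09, -0.19 to 0.36) and Slfn9 at 174 ± 35.7 and 177 ± 39.9 CPM (0.02, -0.31 to 0.35). Their adjusted p by edgeR was between 0.605 and 0.919. The intervals do not show that these genes were unaffected.

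**Figure D2:**
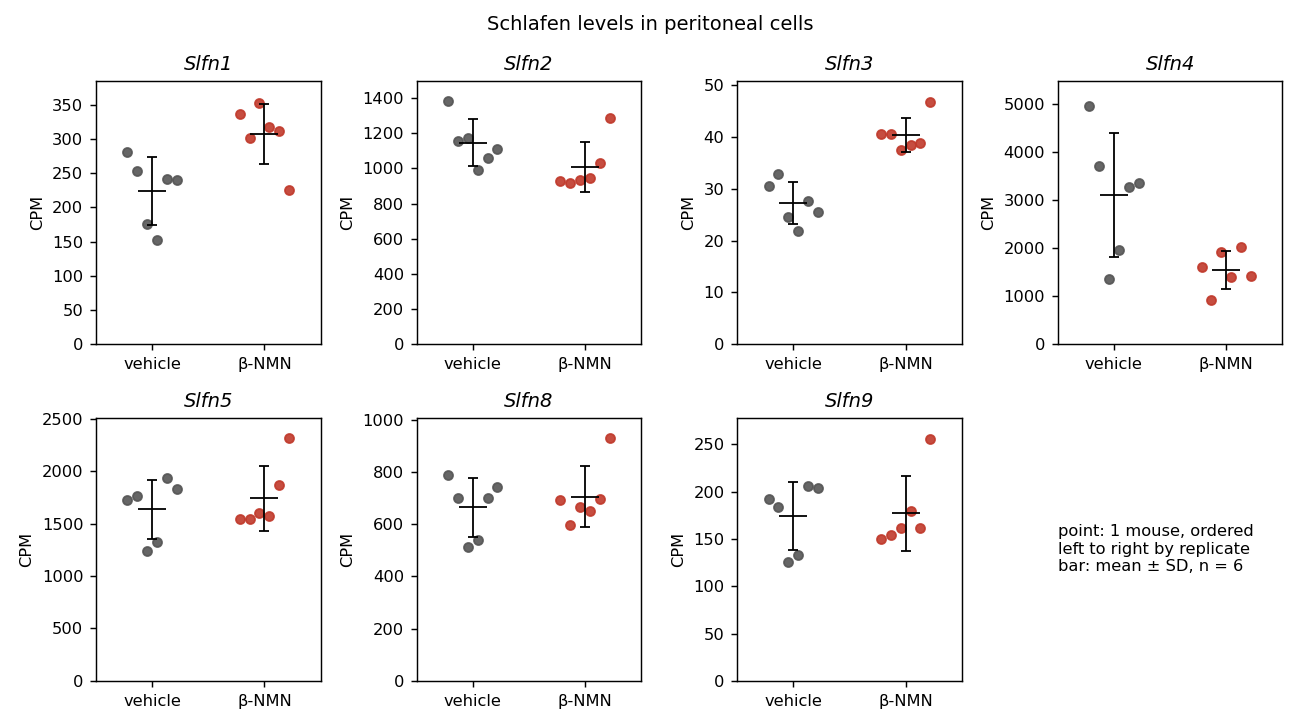
CPM of each Schlafen gene in the 12 peritoneal cell libraries, with vehicle in grey, β-NMN in red, points ordered by replicate number and bars for the mean ± SD (n = 6). All β-NMN points lie above all vehicle points for Slfn3, whereas 4 of 6 vehicle points lie above the β-NMN points for Slfn4, and the rightmost red point, replicate 6, is highest for Slfn2, Slfn3, Slfn5, Slfn8 and Slfn9.

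The opposite changes of adjacent intermediate members were visible as ratios within each library, which do not depend on library size. The ratio of Slfn4 to Slfn3, on the RPKM scale, was 140 at its highest, 99.6 at its median and 47.2 at its lowest in vehicle cells, and 45, 32.7 and 19.5 in β-NMN cells, with no overlap. The ratio of Slfn4 to Slfn1 fell without overlap as well, from 6.31 ± 1.53 to 2.39 ± 0.606. By contrast, the ratio of the paralogs Slfn8 to Slfn9 was 5.61 ± 0.416 in vehicle and 5.88 ± 0.586 in β-NMN cells. These pairs were chosen after their values were seen and are given without a test. Slfn4 thus supplied 36.7 ± 8.11% of the family's summed RPKM in vehicle cells and 23.5 ± 4.96% in β-NMN cells, and Slfn1 5.87 ± 0.396% and 10.2 ± 2.05%. Shares depend on each other, so a lower share of Slfn4 raises those of other members. The mean shares of Slfn5 (12.8 to 16.6%) and Slfn8 (8.02 to 10.4%) rose as well, although their levels differed little.

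**Figure D3:**
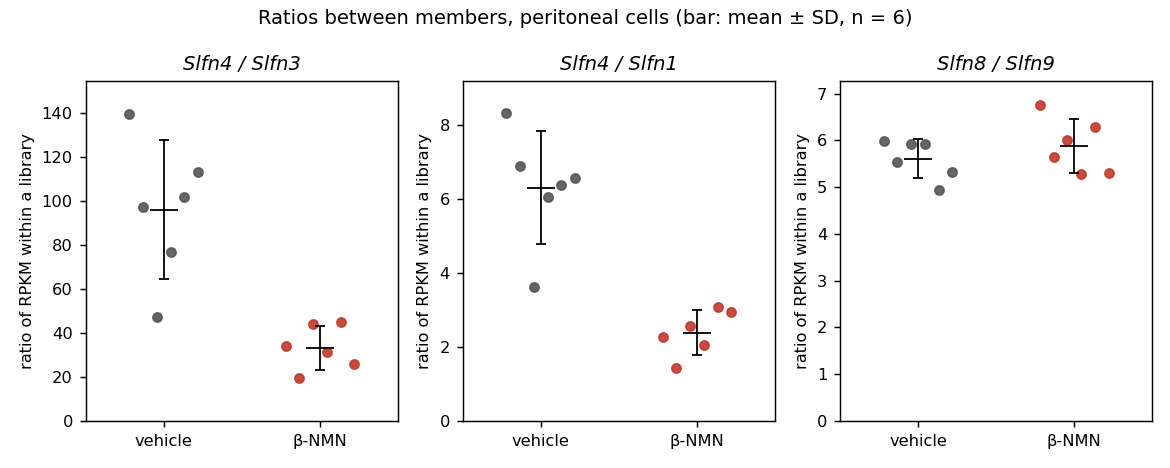
Ratio of the RPKM of a pair of Schlafen genes within each peritoneal cell library, with vehicle in grey, β-NMN in red and bars for the mean ± SD (n = 6). The Slfn4 to Slfn3 and Slfn4 to Slfn1 ratios do not overlap between groups, whereas the Slfn8 to Slfn9 ratio does.

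Markers of other cell types differed between the groups at the same time. The 9 neutrophil markers summed to 477.3 to 990 CPM in vehicle and 327 to 456.2 CPM in β-NMN cells with no overlap, and 5 of the 7 markers tested were called lower and 1 higher. The median log2 fold change of these 7 was -4.10, far below the change of the sum, to which 4 of the 9 genes contributed a mean under 1 CPM each. The 4 NK cell markers summed to 20.7 to 94 against 8.96 to 12.4 CPM, and all 4 were called lower. The 7 macrophage markers summed to 5620 to 8547 against 10570 to 12140 CPM, with 3 called higher and 0 lower. T cell markers overlapped in their sum, with 5 of 7 called lower and 1 higher. The 6 resident peritoneal macrophage markers (42.3 to 49.5 against 45.5 to 126.1 CPM) overlapped through β-NMN replicate 6 alone, with 3 called higher and 3 lower. B cell markers (3 of 5 called lower) and mesothelial markers (3 of 4 called lower) overlapped as well. None of these markers was at 0 in all libraries, and vehicle replicate 3, which had the lowest Slfn4 level of its group, also had the lowest neutrophil and NK cell marker sums of its group (477.3 and 20.7 CPM). That library was likewise lowest of its group for B cell (37.1 CPM), T cell (28.9 CPM), mast cell (87.2 CPM) and eosinophil markers (8.23 CPM). It was highest of its group for macrophage (8547 CPM) and mesothelial markers (14.5 CPM). The part of these markers' cells in the Schlafen changes was not tested.

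Across the 12 peritoneal libraries, the 3 pairs of long members were the pairs whose correlation passed the permutation test both by r and by rho. The correlation of log2 CPM was r = 0.92 (rho = 0.85) between Slfn5 and Slfn8, r = 0.93 (rho = 0.88) between Slfn5 and Slfn9 and r = 0.91 (rho = 0.89) between Slfn8 and Slfn9. Among 21 pairs of members, the permutation p of r was 9e-05, 4e-05 and 0.00012 (adjusted 0.00084 for each), and that of rho was 0.00079, 0.00029 and 0.00035 (adjusted 0.00553, 0.00367 and 0.00367). Without the 2 libraries farthest from the median, r was 0.78, 0.83 and 0.77. Slfn1 and Slfn3 passed by r alone (adjusted permutation p 0.034 for r and 0.185 for rho), and since the treatments did not overlap for Slfn3, only values within each treatment are given for them. Within the 6 vehicle libraries r was 0.92, 0.99 and 0.95, and within the 6 β-NMN libraries it was 0.92, 0.87 and 0.88 for the pairs of long members. Slfn4 and Slfn8 had r = 0.97 within the vehicle and r = 0.24 within the β-NMN libraries. Slfn1 and Slfn3 had r = 0.87 within the vehicle and r = -0.925 within the β-NMN libraries. With Slfn2, Slfn5, Slfn8 and Slfn9, Slfn1 likewise had r between 0.63 and 0.94 in vehicle and between -0.92 and -0.80 in β-NMN libraries, where replicate 6 was the lowest for Slfn1 and the highest for Slfn2, Slfn3, Slfn5, Slfn8 and Slfn9. The difference between treatments was not tested. At 6 libraries no pair passed the exact permutation test after adjustment over the 21 pairs (smallest adjusted p 0.0583 in vehicle and 0.117 in β-NMN libraries). All libraries share the scaling to library size, which can add to such correlations.

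The genes most like each member over the 12 libraries, among 11206 genes with a mean of at least 1 CPM, were taken by Pearson's r. This r pools both treatments, so a treatment difference shared by both genes can raise it. Values within each treatment are not given. Slfn8 went with Ifih1, which encodes a sensor of viral double-stranded RNA (r = 0.97), and with Zup1 (r = 0.96). Slfn2 went with the interferon-induced genes Rtp4 (r = 0.95) and Nmi (r = 0.93). Slfn5 went with the deubiquitinase gene Usp25 (r = 0.98) and with Vcpip1 (r = 0.96), and Slfn9 with the proteasome activator gene Psme4 (r = 0.98) and Usp25 (r = 0.96). The genes most like the called members were B4galt3 (r = 0.99) and Mtfr2 (r = 0.97) for Slfn1, Tmem106a (r = 0.98) and Ccz1 (r = 0.98) for Slfn3, and Bco2 (r = 0.95) and Fbxl5 (r = 0.94) for Slfn4. The genes were chosen for these values, which therefore have no test, and of the 14 names only B4galt3 for Slfn1 and Tmem106a for Slfn3, 2 in all, were kept when ranks were correlated instead. None of those named for Slfn2, Slfn4, Slfn5, Slfn8 or Slfn9 was kept.

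Of 58 interferon genes listed, 55 were tested in peritoneal cells, 12 were called higher and 12 lower, shares that did not exceed those of all genes tested (23.7% higher and 27.9% lower). The median log2 fold change was 0.01 against -0.02 for all genes tested. Among 29 interferon targets, 8 were called higher, a share near that of all genes, and 0 lower, against 27.9% of all genes tested. Their median log2 fold change was 0.14 against -0.02 for all genes, and 22 of the 29 lay above 0. Mx2 and Mx1, which encode antiviral GTPases, had log2 fold changes of 1.02 and 1.25 (adjusted p 2.1e-05 and 3.1e-05 by edgeR), and Ifit1, which encodes a protein that binds viral RNA, had 0.53 (adjusted p = 0.00362). Of 6 interferon genes tested, Ifnb1 was higher (6.79 ± 2.3 to 18 ± 4.01 CPM, log2 fold change 1.41), while Ifng (617 ± 403 to 201 ± 44.2 CPM, -1.62) and Ifna4 (0.6 ± 0.209 to 0.253 ± 0.179 CPM, -1.26) were lower. Among 7 receptor and kinase genes 4 were called lower and 0 higher, with Ifngr1 (log2 fold change -1.42), Ifnar2 (-0.42) and Jak2 (-0.36) at the smallest p. Among 8 factors 3 were higher and 3 lower, with Irf9 (-0.46) and Irf3 (-0.40) lower and Irf5 (0.41) higher at the smallest p. Of 5 inhibitors, 3 were lower and 0 higher, among them Socs3 (-0.98), which encodes a feedback inhibitor of cytokine signalling, Ptpn2 (-0.54) and Pias1 (-0.29).

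Within the cluster, the pseudogene Slfn10-ps, between Slfn8 and Slfn2, was called lower (64.4 ± 7.76 to 48.7 ± 14.5 CPM, log2 fold change -0.40, adjusted p = 0.0399 by edgeR). The groups overlapped, since β-NMN replicate 6, at 76.7 CPM, lay above the highest vehicle library (75.5 CPM).

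In CLP hearts all 7 members had a lower mean with β-NMN, but no member was called. The members share mice and libraries, so counts of members are not independent. Over 16245 genes, edgeR called 0 genes at an adjusted p below 0.05 (0%). The members' log2 fold changes had a median of -1.03, against -0.01 for all genes tested, of which 50.7% lay below 0. At an unadjusted p below 0.05, 4 of 7 members were counted, all lower, against 11.3% of all genes in both directions. This count depended on single libraries. Of 6 fits that left out 1 heart, p stayed below 0.05 in 6 for Slfn2 and Slfn8, in 5 for Slfn4 and in 3 for Slfn1. For Slfn5 and Slfn9 it was below 0.05 in 1 fit each. DESeq2 called 2 members lower, against 1.5% of the genes for which it gave an adjusted p.

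Slfn2 had the smallest p in hearts. It was at 22.6, 30.4 and 28.7 CPM in vehicle replicates 1, 2 and 3 and at 10.7, 10.9 and 18.2 CPM in β-NMN replicates 1, 2 and 3, with no overlap. The difference was 0.488-fold (log2 -1.03 ± 0.24 SE, p = 0.00375 unadjusted and 0.435 adjusted by edgeR, 0.0177 adjusted by DESeq2, and 0.1 by the exact permutation test, the smallest that 3 against 3 allows).

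Slfn8 was at 9.16, 11.1 and 16.3 CPM in vehicle and at 3.09, 3.83 and 7.24 CPM in β-NMN hearts, also without overlap (log2 fold change -1.35 ± 0.37 SE, adjusted p = 0.435 by edgeR and 0.0327 by DESeq2). Slfn4 was at 2.87, 4.08 and 7.01 CPM in vehicle and at 1.23, 0.998 and 2.51 CPM in β-NMN hearts, the third member whose groups did not overlap (-1.54 ± 0.47 SE, adjusted p = 0.435 by edgeR and 0.0641 by DESeq2). Groups without overlap were seen in 11.5% of all genes in the lower and in 11.6% in the higher direction. Slfn1 was at 1.46, 2.26 and 3.64 CPM and at 0.67, 0.832 and 1.66 CPM, where β-NMN replicate 3 lay above vehicle replicate 1 (-1.19 ± 0.47 SE, unadjusted p = 0.0402 and adjusted p = 0.435 by edgeR).

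The 3 remaining members overlapped between groups in hearts. Slfn5, the leading member of the heart, was at 190, 177.2 and 238 CPM in vehicle and at 145.8, 152.7 and 189.5 CPM in β-NMN hearts (log2 fold change -0.31, 95% interval -0.72 to 0.10). Slfn9 had a log2 fold change of -0.61 (-1.58 to 0.37) and Slfn3 of -0.43 (-1.47 to 0.61). Without vehicle replicate 2, the library that stood apart, the log2 fold changes of the 7 members lay between -1.62 (Slfn4) and -0.40 (Slfn5). Without vehicle replicate 3, in which 6 of 7 members were highest, that of Slfn3 was 0.03 and that of Slfn9 was -0.04, while Slfn2 kept -0.99, Slfn8 -1.08 and Slfn4 -1.12. In the hearts the neutrophil markers were lower without overlap (23.3 to 39.3 against 14.4 to 16.8 CPM summed over 9 genes) and the cardiomyocyte markers higher without overlap (30480 to 49690 against 52020 to 56900 CPM). The 7 macrophage markers overlapped. The 6 genes listed for resident peritoneal macrophages were lower without overlap (310.3 to 1188 against 242.7 to 292.4 CPM, with 4 of 6 log2 fold changes below 0), but they summed higher in hearts than in the peritoneal cells and therefore do not mark those cells there. Their part in the Schlafen levels was not tested.

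In CLP lungs, taken from the same mice as the hearts, all 7 log2 fold changes were below 0. Their median was -0.43 against 0.00 for all genes tested, of which 49.9% lay below 0. The 7 members share libraries and the organs share mice, so the lungs are not an independent repeat of the hearts. Over 17008 genes edgeR called 0 genes (0%), and DESeq2 called none of the members and 0.0477% of all genes lower. At an unadjusted p below 0.05, 1 of 7 members was counted, against 1.77% of all genes. That member was Slfn2. It was at 105.5, 137.1 and 112.6 CPM in vehicle replicates 1, 2 and 3 and at 67.7, 42.8 and 86 CPM in β-NMN replicates 1, 2 and 3, with no overlap (log2 fold change -0.85 ± 0.31 SE, unadjusted p = 0.0269 and adjusted p = 0.969 by edgeR, exact permutation p = 0.1). Groups without overlap were seen in 3.75% of all genes in the lower and in 4.47% in the higher direction. Of 6 fits that left out 1 lung, the unadjusted p by edgeR was below 0.05 in 3 for Slfn2 and in 1 each for Slfn3 and Slfn8.

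The other 6 members overlapped between groups in lungs. Slfn4 was at 41.8, 5.92 and 142.9 CPM in vehicle and at 18.3, 41.1 and 90.3 CPM in β-NMN lungs, so that both the lowest and the highest value belonged to vehicle mice (log2 fold change -0.35, 95% interval -2.76 to 2.06). Slfn3 (-0.90), Slfn8 (-0.63), Slfn1 (-0.43), Slfn5 (-0.20) and Slfn9 (-0.17) had adjusted p values of 0.969 to 0.972 by edgeR. Slfn3 rested on 9 to 184 counts per lung. Without vehicle replicate 2, which was lowest for 5 of 7 members, the log2 fold changes were -1.30 for Slfn3, -1.04 for Slfn8, -0.88 for Slfn4 and -0.73 for both Slfn1 and Slfn2. Without vehicle replicate 3, which was highest for 6 of 7 members, that of Slfn4 was 1.05, that of Slfn9 0.36 and that of Slfn1 0.20. In the same fit Slfn8 was at -0.03, Slfn5 at -0.07 and Slfn3 at -0.39, while Slfn2 kept -0.87. In the lungs the macrophage markers were higher without overlap (1342 to 4293 against 5002 to 5477 CPM), the cardiomyocyte markers lower (252.2 to 415.3 against 74.7 to 245.3 CPM), and the neutrophil markers overlapped. Their part in the lung values was not tested.

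**Figure D4:**
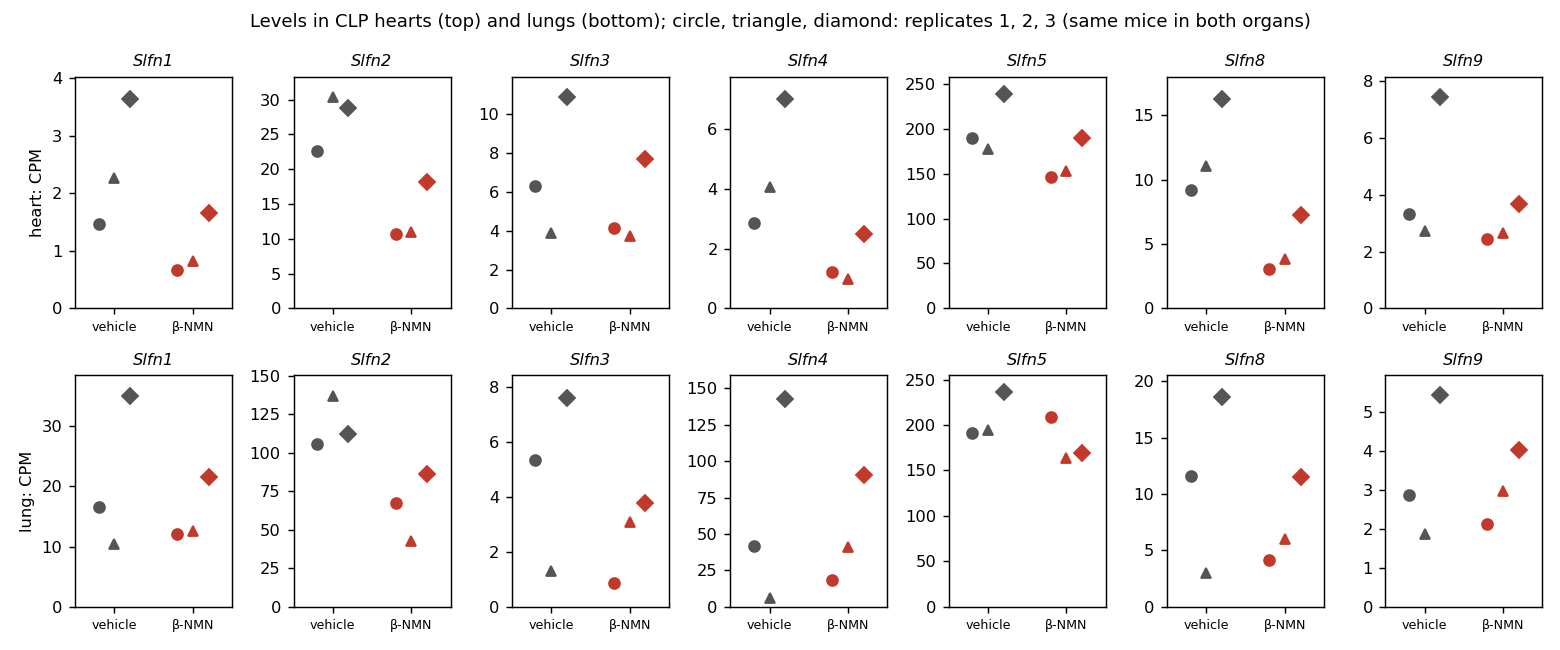
CPM of each Schlafen gene in CLP hearts (top) and lungs (bottom), with vehicle in grey, β-NMN in red and a symbol for each replicate number, so that within a colour a symbol is the same mouse in both organs. The vehicle and β-NMN points of Slfn2 do not overlap in either organ, and the diamonds, replicate 3, are highest of their colour in nearly all panels.

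Within each treatment, the same mouse tended to have the highest Schlafen level in its heart and in its lung. In vehicle mice, replicate 3 was highest for Slfn1, Slfn3, Slfn4, Slfn5, Slfn8 and Slfn9 in both organs, and replicate 2 was highest for Slfn2 in both organs, so that heart and lung named the same mouse for 7 of 7 members. In β-NMN mice, replicate 3 was highest for all 7 members in hearts and for all but Slfn5 in lungs, which gives 6 of 7 members. Among 14903 genes tested in both organs, heart and lung named the same mouse for 37.1% of genes in vehicle and for 36.1% in β-NMN mice. The members share mice and libraries, so these counts are not independent, and no test was made.

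Whether β-NMN changed a member differently in the 2 organs was tested as an interaction over the 12 CLP libraries. Of 18318 genes, 0 were called (0%), and 4.35% had an unadjusted p below 0.05. No member was called, and the smallest unadjusted p among the 7 was 0.326 (Slfn1, adjusted p = 0.96 by edgeR). The difference heart minus lung of the log2 fold changes was -1.17 for Slfn4, with a 95% interval of -3.89 to 1.55, and -0.21 for Slfn2, with an interval of -1.07 to 0.66. With the mouse as block, since heart and lung came from the same animals, the difference was -1.76 for Slfn4 and -0.18 for Slfn2, and the smallest unadjusted p was 0.081 (Slfn1, adjusted p = 0.948 by edgeR). The intervals are wide, and the libraries do not show that the organs responded alike. Slfn1 and Slfn3, which were higher in peritoneal cells, had log2 fold changes below 0 in both organs, and Slfn4 was below 0 in all 3 tissues, although in lungs it was above 0 with the replicate block (0.14), under limma-voom (0.0495) and without vehicle replicate 3 (1.05) or β-NMN replicate 1 (0.0516). The difference between peritoneal cells and organs was not tested.

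**Figure D5:**
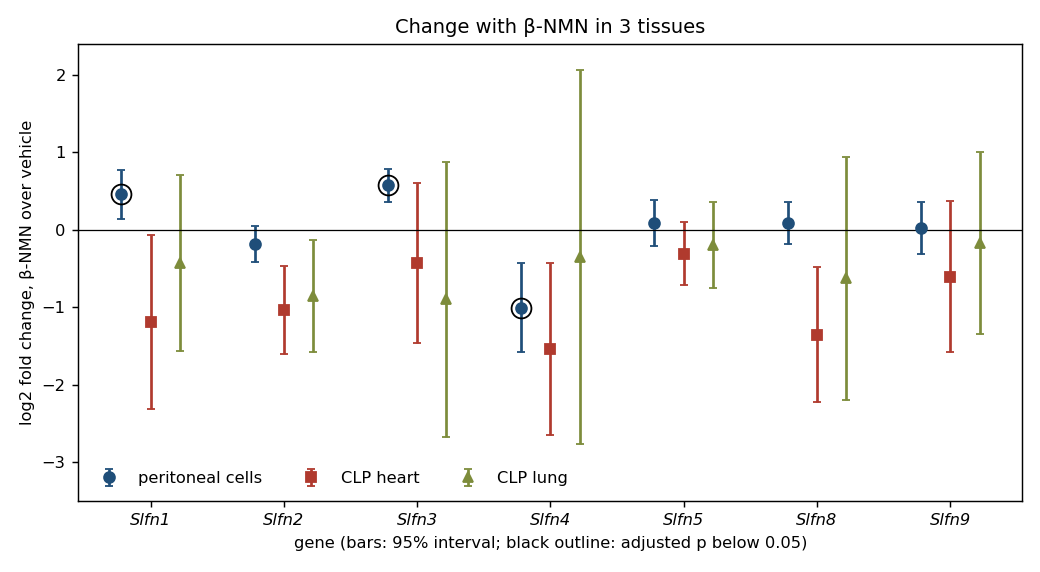
Log2 fold change of each Schlafen gene, β-NMN over vehicle, with its 95% interval in peritoneal cells (blue circles), CLP hearts (red squares) and CLP lungs (green triangles). Black outlines mark an adjusted p below 0.05 by edgeR, which is reached by Slfn1, Slfn3 and Slfn4 in peritoneal cells and by no member in the organs, while all heart and lung points lie below 0.

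In the organs, edgeR called none of the 49 interferon genes tested, and DESeq2 called 2 of them lower in hearts. A log2 fold change below 0 was seen for 41 of 49 in hearts (median -0.37) and for 40 of 49 in lungs (median -0.49), against 50.7% and 49.9% of all genes. Among targets the count was 27 of 29 in each organ, whereas among receptors and kinases it was 3 of 7 in hearts and 1 of 7 in lungs. The genes share libraries and the organs share mice, so these counts are not independent. The targets with the smallest p were Cxcl10, a chemokine gene (log2 fold change -1.57), Zbp1 (-1.33) and Eif2ak2 (-0.72) in hearts and Ifit1 (-1.74), Rsad2 (-0.93) and Eif2ak2 (-1.27) in lungs. The inhibitors with the smallest p were Socs3 (-2.32), Socs1 (-1.74) and Ptpn2 (-0.90) in hearts and Socs1 (-1.17), Socs3 (-0.56) and Ptpn2 (-0.87) in lungs. The receptors and kinases with the smallest p were Ifngr1 (0.22), Ifngr2 (0.55) and Tyk2 (0.34) in hearts and Ifngr2 (-0.44), Tyk2 (0.38) and Ifngr1 (0.19) in lungs. The factors were Irf8 (-0.89), Irf9 (-0.48) and Stat2 (-0.59) in hearts and Irf5 (-0.33), Irf7 (-0.93) and Irf1 (-0.25) in lungs. None of the 9 interferon genes passed the count filter in either organ.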

How the data were processed

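RNA was sequenced from 12 peritoneal cell samples, 6 hearts and 6 lungs. The counts per gene symbol were deposited by the authors without normalization, after poly(A) selection, sequencing of 150-base reads, mapping to mm10 with STAR 2.7.3a and counting with featureCounts 2.0.0 (versions as in the submitters' processing notes). The study's methods name both single-end and paired-end reads, and the annotation and strand setting of the counting are not given in the sources used here. Lung libraries were the shallowest, and the precision of low genes there is limited accordingly.

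Groups were taken from the sample titles. A heart whose title repeats number 3 was numbered 2, as its mouse's lung is. The source labels of the organs name thioglycollate, whereas their titles and tissue name CLP. Each tissue was fitted alone over all genes with edgeR 4.0.16 under R 4.3.3 (filterByExpr, TMM, estimateDisp and the earlier of its quasi-likelihood methods), with Benjamini-Hochberg adjustment over all genes tested and calls at 0.05. For each member, mean log2 CPM (prior count 2) was in addition compared by permuting libraries, two-sided and exact. Organs were compared through an interaction term over all 12 CLP libraries. RPKM used the union of exons of GENCODE M21, in which 54106 of 54658 symbols were found. Upstream sequences are from RefSeq. Animals are the replicates in each group.

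The alternatives tried were DESeq2 1.42.0 as a whole or for its size factors alone, all genes without a filter, a newer and a robust quasi-likelihood method, limma-voom (limma 3.58.1) with quality weights, a replicate block, both organs in one fit, summed counts of paralogs, a prior count of 0.5, longest transcripts for length, rank correlation and leaving out each library. The fits were tested on simulated counts. No libraries of a group agreed within counting noise. By the sample titles, heart and lung of a number came from the same mouse, so the mouse served as block in an alternative. The correlations of their deviations from the group means were 0.04 to 0.15. Some hearts correlated better with the lung of another mouse (0.049 against 0.043 and 0.054 against 0.045), so these values do not decide the pairing.

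All members are named, together with the 2 genes most like each member and up to 3 genes of smallest p from each interferon list and tissue. The genes beside the cluster are not reported here. The members and lists were chosen with earlier results of these data known. Protein sequences were not used here.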

Additional observations from a re-analysis of the deposited data

Results flagged for a closer look

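In groups of 6 peritoneal libraries, a value was marked when its gap to the nearest other library exceeded Dixon's 95% critical share of the group's range, which chance alone gives in about 1 of 20 groups. Of 14 sets of CPM values (7 members in each of 2 groups), 4 were marked, and all 4 were the highest value of their group in β-NMN replicate 6. These were Slfn2 at 1288 CPM, Slfn3 at 46.7 CPM, Slfn8 at 930.2 CPM and Slfn9 at 255.8 CPM. Slfn5 was also highest in that library (2313 CPM) without being marked, and Slfn1 was lowest there (225.7 CPM). Slfn4, at 1412 CPM, lay inside the range of its group. The 4 values come from 1 library and are not independent. On the log2 scale 5 of the 14 sets were marked, the additional one being Slfn1, at the low end, in the same library. Its resident peritoneal macrophage markers summed to 45.5 CPM against 77 to 126.1 CPM in the other 5 β-NMN libraries, and its B cell markers to 25.9 CPM, also the lowest of the group. Its neutrophil markers, at 456.2 CPM, were the highest of that group, and its scaling factor of 0.888 was the lowest of the 12 libraries. Their part in the Schlafen values of this library was not tested.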

How the results depend on the processing

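The calls of Slfn1, Slfn3 and Slfn4 in peritoneal cells were kept under every alternative that tested these genes one by one. With the counts of Slfn3 and Slfn4 summed, the sum was lower (log2 fold change -0.98), and 2 of 5 features were called. Limma-voom with quality weights also called Slfn2 lower (-0.26) and placed Slfn5 (-0.0727), Slfn8 (-0.0387) and Slfn9 (-0.16) below 0 in peritoneal cells, and Slfn4 (0.0495) and Slfn9 (0.0415) above 0 in lungs. When 1 library was left out, Slfn9 in peritoneal cells ranged from -0.0827 (without β-NMN replicate 6) to 0.0912. In hearts, Slfn3 ranged from -0.836 to 0.0303 (without vehicle replicate 3). In lungs, Slfn1 ranged from -0.754 to 0.20, Slfn4 from -1.10 to 1.05 and Slfn9 from -0.425 to 0.36, each highest without vehicle replicate 3. Slfn8 ranged from -1.14 to -0.0336 and Slfn3 from -1.30 to -0.39 in lungs, also highest without that library. Slfn4 and Slfn9 were above 0 also when β-NMN replicate 1 was left out. The heart minus lung difference of Slfn5 ranged from -0.263 to 0.0506 (without β-NMN replicate 1). In hearts, DESeq2 called 2 members and 2 interferon genes in place of 0, and leaving out 1 library gave 0 to 1 interferon genes, the 1 without vehicle replicate 2. Rank correlation kept 2 of the 14 genes most like a member. The cause of these shifts was not tested. With the replicate block, 3 members were called in peritoneal cells and 0 in hearts, in lungs and between organs (there with the mouse as block), and Slfn4 in lungs was at 0.14. The block changed no call of a member. Same-numbered vehicle and β-NMN libraries come from different animals by their titles. The correlations of their deviations were -0.17 to 0.13 in peritoneal cells, 0.07 to 0.24 in hearts and -0.52 to 0.30 in lungs. Each heart correlated best with its own number, a hint from the data and not the design. These correlations do not decide whether same-numbered libraries share more than the number. The order of levels per length was the same with the longest transcripts. The depth was least in lungs, where Slfn3 rested on 9 to 184 counts per library, against 111 to 496 in hearts.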
